A study of Mus musculus with 30 samples.

Results

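The 9 genes described here, *Gpnmb*, *Trem2*, *Tyrobp*, *Cd9*, *Lgals3*, *Fabp5*, *Itgax*, *Mreg* and *Cstb*, are known from lipid-associated macrophages, and they were taken by symbol from the 55450 genes of a count table of mouse liver RNA-Seq. Male mice were studied in 3 experiments. Each compared livers of 5 *Cebpa* fl/fl mice with livers of 5 knockout mice, which gives 6 groups and, at 1 stranded mRNA library from each animal, 30 libraries. All mice carried floxed *Cebpa* alleles on a C57BL/6N background and ate HFCFD, a diet rich in fat, cholesterol and fructose that causes steatohepatitis. In HFCFD2W the diet was given for 2 weeks, and the knockout mice (*Cebpa* ΔHep) carried Albumin-cre, which acts in hepatocytes from development on. In HFCFD8W+T10D, labelled as 8 weeks of diet with 10 days of tamoxifen, and in HFCFD12W+T10W, labelled as 12 weeks of diet with 10 weeks of tamoxifen and described in the methods as 12 weeks of diet followed by 10 further weeks of diet with tamoxifen, the knockout mice (*Cebpa* ΔHep,ERT2) carried Albumin-ERT2-cre, which deletes the gene in hepatocytes once tamoxifen is given. The *Cebpa* fl/fl mice had no Cre and the same labelled treatment. Ages were not given in the sources used here, and the deposited design text calls the experiments different batches, so Cre line, diet time, tamoxifen, age and batch cannot be told apart when experiments are compared.

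Macrophages that take up lipid from dying or overloaded cells switch on a shared set of genes. TREM2 is a surface receptor that binds lipids and lipoproteins, and TYROBP is the membrane adaptor that carries its signal to the kinase SYK. Downstream of lipid uptake stand the lysosome and proteins linked to it: GPNMB, a transmembrane glycoprotein of endosomes and lysosomes that MiT/TFE transcription factors can induce, cystatin B (*Cstb*), an inhibitor of lysosomal cathepsins, and melanoregulin (*Mreg*), an adaptor in organelle trafficking. CD9 is a tetraspanin, *Itgax* encodes the integrin CD11c, galectin-3 (*Lgals3*) binds glycans on lipids and proteins, and FABP5 carries fatty acids in the cytosol. In fatty liver, macrophages with these transcripts appear beside the resident Kupffer cells and have been placed near fibrotic tissue. None of these genes is exclusive to macrophages, and *Cd9*, *Lgals3*, *Fabp5* and *Cstb* in particular are made by many cell types.

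The libraries held 7996128 to 10257366 counts, and 1 count was worth 0.0808 to 0.148 CPM (counts per 1000000 counts of the library total after TMM normalization). *Cebpa*, the targeted gene, lay between 82.4 and 193 CPM in all *Cebpa* fl/fl livers and between 3.43 and 25.1 CPM in all knockout livers (log2 fold change -5.23 in the *Cebpa* ΔHep mice, and -3.04 and -2.38 in the *Cebpa* ΔHep,ERT2 mice after 10 days and 10 weeks of tamoxifen). Defining markers of hepatocytes were abundant in every liver, with the 8 markers summing to 49338 to 159586 CPM.

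All members are protein-coding genes, and in the GENCODE M21 annotation of GRCm38 they lie apart from each other on 7 chromosomes. *Trem2* spans chromosome 17, 48346401 to 48354147 on the plus strand. *Gpnmb* (49036546 to 49070929, plus strand) and *Cd9* (125460266 to 125494791, minus strand) share chromosome 6. *Tyrobp* (30413760 to 30417585) and *Itgax* (128129547 to 128150657) are both on the plus strand of chromosome 7. *Mreg* is on the minus strand of chromosome 1 (72159442 to 72212307), *Fabp5* on chromosome 3 (10012548 to 10016607, plus), *Cstb* on chromosome 10 (78425669 to 78427622, plus) and *Lgals3* on chromosome 14 (47367751 to 47386160, plus).

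Promoters of *Gpnmb*, *Trem2*, *Cd9*, *Lgals3*, *Itgax* and *Mreg*, 6 of the 9 members, were present in the RefSeq set for GRCm38.p6. The 3 below are shown because they hold a searched motif, the 4th, of *Gpnmb*, because this gene had the largest difference. Each is the stretch of 250 bases that ends just before the start site, 5′ to 3′ on the strand of the gene, with motif matches in capitals. The motifs, searched on both strands, were C/EBP (TTGCNNAA), PU.1/ETS (GGAAGT), the E-box of MiT/TFE factors (CACGTG) and AP-1 (TGANTCA), and no matches overlapped.
*Trem2*, chr17:48346151-48346400, plus strand: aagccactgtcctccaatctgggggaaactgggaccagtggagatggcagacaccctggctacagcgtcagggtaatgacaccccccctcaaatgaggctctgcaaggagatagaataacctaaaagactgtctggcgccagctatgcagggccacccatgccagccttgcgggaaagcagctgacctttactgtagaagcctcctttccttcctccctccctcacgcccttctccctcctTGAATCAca
*Itgax*, chr7:128129300-128129549, plus strand: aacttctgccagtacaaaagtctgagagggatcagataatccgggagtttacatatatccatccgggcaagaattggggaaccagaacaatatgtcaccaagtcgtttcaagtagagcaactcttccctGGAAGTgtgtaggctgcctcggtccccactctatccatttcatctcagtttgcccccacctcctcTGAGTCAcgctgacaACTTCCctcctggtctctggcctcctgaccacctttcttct
*Mreg*, first of 2 listed start sites, chr1:72212315-72212564, minus strand: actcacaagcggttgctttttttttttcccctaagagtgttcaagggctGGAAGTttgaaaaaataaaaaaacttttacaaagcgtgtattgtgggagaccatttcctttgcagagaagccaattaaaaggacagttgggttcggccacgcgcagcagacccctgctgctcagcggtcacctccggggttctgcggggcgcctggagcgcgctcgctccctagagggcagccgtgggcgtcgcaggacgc
*Gpnmb*, chr6:49036268-49036517, plus strand: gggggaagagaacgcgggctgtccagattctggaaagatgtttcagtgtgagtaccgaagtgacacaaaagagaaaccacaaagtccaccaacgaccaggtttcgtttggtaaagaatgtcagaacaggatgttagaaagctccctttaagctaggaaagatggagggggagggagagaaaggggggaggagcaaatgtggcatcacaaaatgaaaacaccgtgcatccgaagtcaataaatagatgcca
The *Trem2* window ended with the AP-1 letters TGAATCA at positions -9 to -3 from the start. The *Itgax* window held GGAAGT at -121 to -116, the same motif on the other strand (ACTTCC) at -41 to -36, and the AP-1 letters TGAGTCA at -56 to -50, whereas the *Mreg* window held GGAAGT at -201 to -196. The windows of *Gpnmb*, *Cd9* and *Lgals3* held none of the motifs, and no member window held the C/EBP or E-box letters. Of 32851 promoter windows in the set, 9.56% held the C/EBP motif, 19.7% the PU.1/ETS motif, 6.02% the E-box and 6.75% the AP-1 motif.

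Across the 3 experiments the members ranged from no called difference to a near uniform increase. In HFCFD2W, 0 of the 6 members with enough counts passed the test (edgeR quasi-likelihood test, Benjamini-Hochberg adjusted p under 0.05 over all genes tested), against 8.6% of all genes called higher and 8.09% called lower. Among these 6, at an unadjusted edgeR p under 0.05 2 members were higher (*Tyrobp* and *Cstb*) and 0 lower. By p these 2 ranked only 2249 and 3196 of the 11068 genes tested, so p-values this low were common among all genes. Of the members with too few counts, *Trem2* and *Itgax* were also higher at unadjusted p = 0.0397 and 0.0159 (two-sided exact permutation test). DESeq2 called 0 members higher, but it was run after the same low-count filter and so did not test *Gpnmb*, *Trem2* or *Itgax*. Limma on the deposited TMM-normalized values, without that filter, called 1 (*Itgax*). In HFCFD8W+T10D, 7 of 9 members were higher in knockout livers and 0 lower, against 10.3% higher and 6.85% lower among all genes, and 5 of the 7 differed by more than 2-fold. In HFCFD12W+T10W, 8 of 9 were higher, 7 of them by more than 2-fold, and *Mreg* was lower, against 27.4% higher and 23.8% lower among all genes. The median log2 fold change of the members tested was 0.19, 1.26 and 1.87 in the 3 experiments, while that of all genes tested was 0.01 in each. The members were chosen with earlier results of these data known, so these comparisons with all genes are descriptions and not tests of enrichment. Of the 9 members, *Gpnmb*, *Trem2* and *Itgax* did not reach the minimum count in HFCFD2W.

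**Figure D1:**
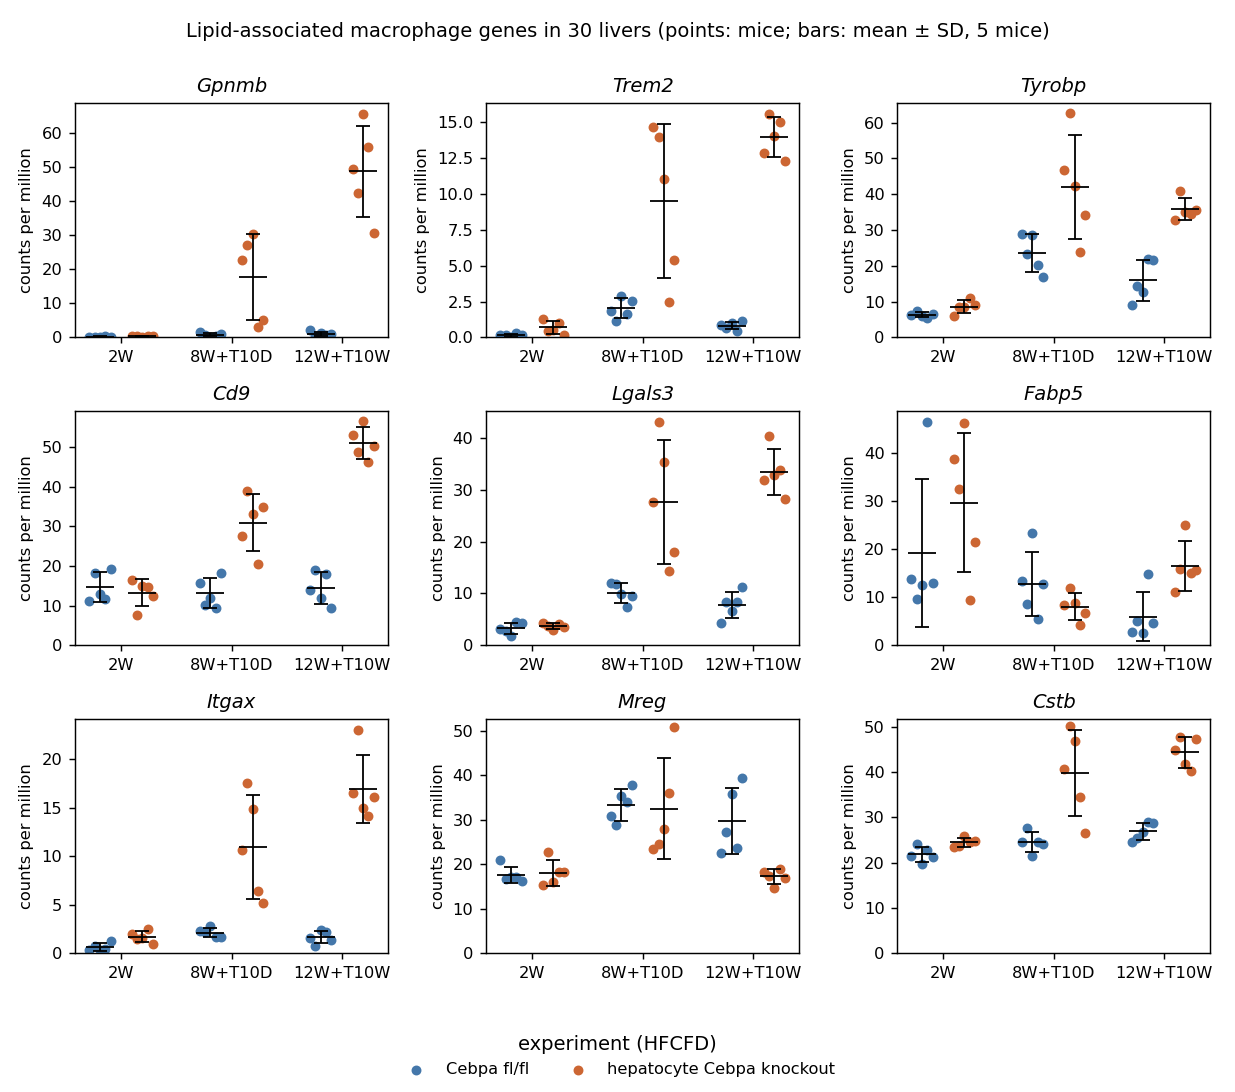
Levels of the 9 members in every liver, in CPM on a linear axis from 0, by experiment (horizontal axis) and genotype (blue, *Cebpa* fl/fl, orange, knockout), with 1 point per mouse and bars for the mean ± SD of 5 mice. In HFCFD12W+T10W the knockout points of *Gpnmb* lie between 30.6 and 65.7 CPM, above all *Cebpa* fl/fl points, and those of *Mreg* lie between 14.8 and 19.03 CPM, below all of them.

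*Trem2*, the lipid receptor, was nearly undetected in HFCFD2W and was higher in knockout than in *Cebpa* fl/fl livers in both later experiments. In HFCFD2W the *Cebpa* fl/fl livers gave 1, 1, 0, 2 and 1 counts and the knockout livers 11, 4, 4, 8 and 1 counts, sums of 5 and 28. The mean levels were 0.143 ± 0.0977 and 0.689 ± 0.467 CPM (SD, n = 5 each), the ranges overlapped, and a two-sided exact permutation test of the means gave p = 0.0397 before any adjustment (the smallest p that 5 against 5 mice allow is 0.00794). Since no *Cebpa* fl/fl liver exceeded 3 counts, no fold is given.

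In HFCFD8W+T10D, *Trem2* was 1.85, 1.16, 2.89, 1.62 and 2.56 CPM in *Cebpa* fl/fl mice 1 to 5 and 14.7, 13.96, 11.04, 2.49 and 5.41 CPM in knockout mice 1 to 5. Of the knockout livers, 4 lay above every *Cebpa* fl/fl liver and mouse 4 lay within their range. The difference was 4.75-fold (log2 fold change 2.25 ± 0.44 SE, edgeR adjusted p = 0.00449). In HFCFD12W+T10W the values were 0.831, 0.679, 1.03, 0.459 and 1.11 CPM against 12.9, 15.6, 14.1, 15.03 and 12.3 CPM. The groups did not overlap, the knockout livers were close to each other (13.97 ± 1.39 CPM), and the difference was 17.1-fold (log2 4.10 ± 0.18, edgeR adjusted p = 1.4e-08).

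*Tyrobp*, the adaptor that TREM2 shares with other myeloid receptors, was far more abundant than *Trem2* and differed less. In HFCFD2W it was 6.38, 7.27, 5.83, 5.52 and 6.52 CPM in *Cebpa* fl/fl livers and 6.03, 8.41, 8.51, 11.1 and 8.99 CPM in knockout livers. All knockout values but the first lay above the *Cebpa* fl/fl range, yet the difference did not pass (log2 0.45 ± 0.16, edgeR adjusted p = 0.069), and it passed without knockout mouse 2 (log2 0.56, edgeR adjusted p = 0.0183).

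In HFCFD8W+T10D, *Tyrobp* was 28.9, 23.3, 28.5, 20.1 and 16.9 CPM in *Cebpa* fl/fl livers against 46.7, 62.7, 42.3, 23.9 and 34.2 CPM in knockout livers, with knockout mouse 4 inside the *Cebpa* fl/fl range. The 1.81-fold difference passed (log2 0.86 ± 0.23, edgeR adjusted p = 0.0219), but not without *Cebpa* fl/fl mouse 4 (edgeR adjusted p = 0.0579) or mouse 5 (0.0527). *Tyrobp* values in HFCFD12W+T10W were 9.14, 14.3, 12.7, 22.02 and 21.6 CPM against 32.7, 40.9, 34.98, 34.6 and 35.5 CPM, which did not overlap (2.30-fold, log2 1.202 ± 0.19, edgeR adjusted p = 0.00023).

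*Gpnmb* showed the largest fold difference of the members in both later experiments. In HFCFD2W it was at the edge of detection in both genotypes, with 1, 1, 0, 3 and 1 counts in *Cebpa* fl/fl livers and 3, 4, 1, 3 and 2 counts in knockout livers (two-sided exact permutation test, p = 0.143, n = 5 each). With so few counts, a small difference could not be detected at this depth and no fold is given.

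In HFCFD8W+T10D, *Gpnmb* was 1.51, 0.776, 0.232, 0.508 and 1.08 CPM in *Cebpa* fl/fl mice and 22.6, 27.2, 30.3, 2.96 and 5.22 CPM in knockout mice. All knockout livers lay above all *Cebpa* fl/fl livers, and knockout mice 4 and 5 were well below the other 3. The difference was 21.6-fold (log2 4.43 ± 0.69, edgeR adjusted p = 0.000995), rank 9 of 11990 genes by log2 fold change. After the longest treatment, in HFCFD12W+T10W, the *Cebpa* fl/fl livers had 2.02, 0.453, 1.26, 0.688 and 0.908 CPM and the knockout livers 49.4, 42.4, 65.7, 55.8 and 30.6 CPM. The lowest knockout value was many times the highest *Cebpa* fl/fl value, and the difference was 47.1-fold (log2 5.56 ± 0.30, edgeR adjusted p = 5.6e-08), rank 22 of 12463 genes.

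*Itgax*, the CD11c integrin of dendritic cells and of some macrophages, had low counts in HFCFD2W, with sums of 22 in *Cebpa* fl/fl and 69 in knockout livers. There it was 0.297, 0.742, 0.350, 0.414 and 1.28 CPM against 2.01, 1.46, 1.62, 2.55 and 0.940 CPM, with 4 knockout livers above the *Cebpa* fl/fl range. It missed the low-count filter of the edgeR test, and the two-sided exact permutation test of the means gave p = 0.0159 (n = 5 each, before any adjustment). *Itgax* passed at log2 1.48 when no filter was used (edgeR adjusted p = 0.0295).

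In HFCFD8W+T10D, *Itgax* was 2.32, 2.20, 2.78, 1.73 and 1.67 CPM in *Cebpa* fl/fl livers and 10.7, 17.6, 14.9, 6.40 and 5.22 CPM in knockout livers. The groups did not overlap and differed 5.22-fold (log2 2.38 ± 0.34, edgeR adjusted p = 0.000598). The last experiment gave 1.54, 0.792, 2.41, 2.18 and 1.41 CPM against 16.5, 23.1, 15.004, 14.2 and 16.2 CPM. Again no values overlapped, with a difference of 10.5-fold (log2 3.39 ± 0.23, edgeR adjusted p = 3.2e-07).

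*Cd9*, a tetraspanin of the cell surface and of vesicles, was as abundant in knockout as in *Cebpa* fl/fl livers early on. In HFCFD2W it was 11.3, 18.1, 13.05, 11.7 and 19.3 CPM against 16.6, 7.74, 14.99, 14.7 and 12.3 CPM (log2 -0.15, 95% interval -0.59 to 0.30, edgeR adjusted p = 0.673). In HFCFD8W+T10D the *Cebpa* fl/fl livers had 15.7, 10.1, 11.9, 9.44 and 18.2 CPM and the knockout livers 27.6, 38.8, 33.0, 20.5 and 34.8 CPM, a 2.39-fold difference without overlap (log2 1.26 ± 0.21, edgeR adjusted p = 0.00165). In HFCFD12W+T10W they had 14.01, 19.02, 11.9, 17.9 and 9.38 CPM against 52.9, 48.8, 56.6, 46.3 and 50.3 CPM. This 3.65-fold difference (log2 1.87 ± 0.16, edgeR adjusted p = 1.5e-06) came without overlap, and the *Cebpa* fl/fl means were 14.7 ± 3.74, 13.1 ± 3.77 and 14.4 ± 4.03 CPM in the 3 experiments.

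*Lgals3*, which encodes galectin-3, followed *Cd9* in the knockout but not in the *Cebpa* fl/fl livers. In HFCFD2W it was 3.11, 2.67, 1.75, 4.41 and 4.26 CPM against 4.26, 3.70, 2.97, 4.09 and 3.49 CPM, overlapping ranges (log2 0.21, 95% interval -0.30 to 0.72, edgeR adjusted p = 0.591). In HFCFD8W+T10D it was 12.04, 11.8, 9.84, 7.31 and 9.44 CPM against 27.7, 43.1, 35.4, 14.3 and 17.9 CPM, a 2.80-fold difference without overlap (log2 1.49 ± 0.27, edgeR adjusted p = 0.00343). In HFCFD12W+T10W it was 4.27, 8.38, 6.66, 8.26 and 11.2 CPM against 31.9, 40.3, 32.8, 33.8 and 28.3 CPM. The groups were again separate, at 4.41-fold (log2 2.14 ± 0.19, edgeR adjusted p = 2.1e-06).

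*Fabp5*, the fatty acid carrier, varied widely between mice of 1 group. In HFCFD2W the *Cebpa* fl/fl livers had 13.8, 9.64, 12.6, 46.5 and 13.05 CPM, with mouse 4 far above the rest, and the knockout livers 38.7, 32.4, 46.2, 9.45 and 21.5 CPM. The difference did not pass (log2 0.64 ± 0.44, edgeR adjusted p = 0.359) and passed without *Cebpa* fl/fl mouse 4 (log2 1.27, edgeR adjusted p = 0.034). In HFCFD8W+T10D, 13.4, 8.66, 23.3, 5.48 and 12.8 CPM stood against 8.33, 11.99, 8.88, 4.27 and 6.64 CPM, the only member besides *Mreg* that did not pass there (log2 -0.64, 95% interval -1.38 to 0.11, edgeR adjusted p = 0.232). In HFCFD12W+T10W, 2.73, 4.98, 2.53, 14.8 and 4.64 CPM stood against 11.1, 15.95, 25.04, 15.03 and 15.6 CPM. *Fabp5* rose 2.87-fold there (log2 1.52 ± 0.40, edgeR adjusted p = 0.00649), although *Cebpa* fl/fl mouse 4 reached the knockout range.

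*Cstb*, the cathepsin inhibitor, was close between mice of each *Cebpa* fl/fl group. In HFCFD2W it was 21.5, 24.03, 19.7, 22.8 and 21.3 CPM against 23.5, 23.8, 25.9, 24.6 and 24.7 CPM, a difference that did not pass (log2 0.17 ± 0.07, edgeR adjusted p = 0.14). In HFCFD8W+T10D it was 24.7, 27.7, 21.5, 24.7 and 24.2 CPM against 40.8, 50.3, 46.9, 34.6 and 26.7 CPM, and only knockout mouse 5 fell within the *Cebpa* fl/fl range (1.64-fold, log2 0.72 ± 0.16, edgeR adjusted p = 0.00839). In HFCFD12W+T10W it was 24.7, 25.5, 26.7, 28.9 and 28.8 CPM against 44.8, 47.9, 41.7, 40.3 and 47.3 CPM. The difference was 1.70-fold with no overlap (log2 0.77 ± 0.08, edgeR adjusted p = 5.4e-06).

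*Mreg*, the organelle adaptor, was the member that went the other way. In HFCFD2W it was 20.9, 16.8, 17.2, 17.1 and 16.2 CPM in *Cebpa* fl/fl and 15.4, 22.8, 15.9, 18.3 and 18.4 CPM in knockout livers (log2 0.05, 95% interval -0.21 to 0.30, edgeR adjusted p = 0.829). In HFCFD8W+T10D it was 30.8, 28.96, 35.4, 34.0 and 37.9 CPM against 23.4, 24.6, 27.9, 36.0 and 50.9 CPM, so that knockout mice 1 to 3 lay below and mouse 5 above every *Cebpa* fl/fl liver (log2 -0.03, 95% interval -0.44 to 0.38, edgeR adjusted p = 0.941). In HFCFD12W+T10W it was 22.6, 27.3, 35.8, 23.6 and 39.4 CPM against 18.4, 17.4, 14.8, 19.03 and 16.9 CPM. The knockout level was 0.598 of the *Cebpa* fl/fl level, with no overlap in CPM (log2 -0.74 ± 0.15, edgeR adjusted p = 0.00133). In TPM (counts per transcript length, scaled to a common total, without TMM) the ranges did overlap. They were 12.82 to 23.54 TPM in *Cebpa* fl/fl and 11.04 to 14.45 TPM in knockout livers, so the separation depends on the scale.

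**Figure D2:**
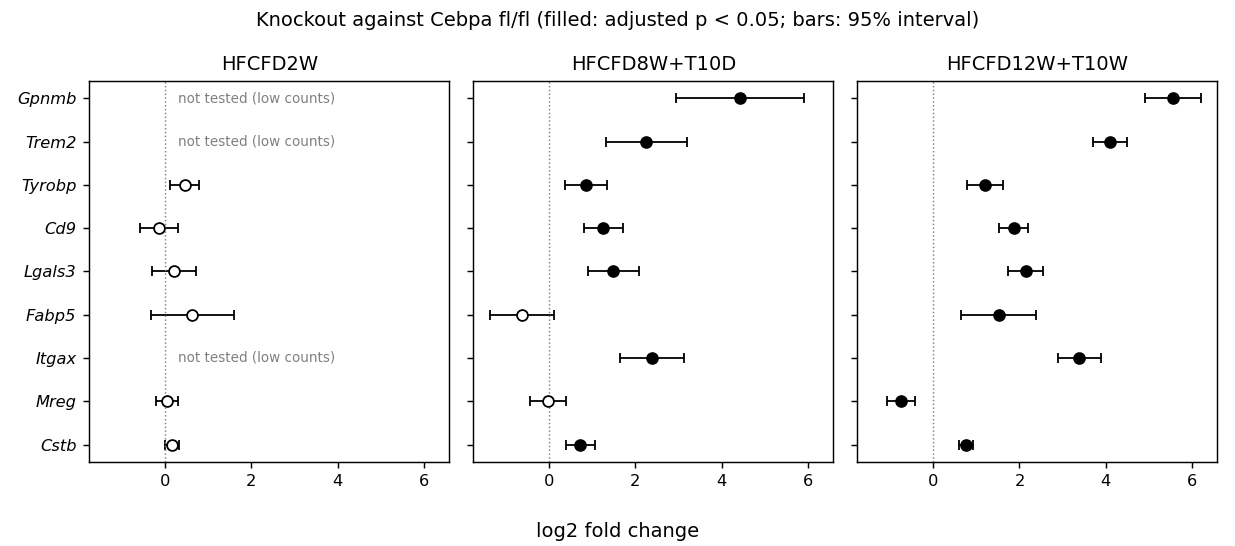
Log2 fold change of each member, knockout against *Cebpa* fl/fl, in the 3 experiments (panels), with its 95% interval as a bar and a filled point where the edgeR adjusted p was under 0.05. *Gpnmb* stands at 4.43 and 5.56 in the 2 later experiments, *Mreg* at -0.74 in HFCFD12W+T10W, and *Gpnmb*, *Trem2* and *Itgax* have no point in HFCFD2W.

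In bulk liver, more cells of a type and more RNA per cell cannot be told apart, and this holds for all of these values. General macrophage markers moved in the same experiments. Of 8 pan-macrophage markers, among them *Adgre1*, *Csf1r*, *Cd68* and *Lyz2*, 3 were higher in HFCFD2W (median log2 0.38). In each later experiment 7 were higher (median log2 0.92 for HFCFD8W+T10D and 1.18 for HFCFD12W+T10W), and in the last the remaining marker was lower. Their summed level was 255 to 314 CPM in *Cebpa* fl/fl and 284 to 365 CPM in knockout livers of HFCFD2W. It was 413 to 621 against 622 to 1310 CPM in HFCFD8W+T10D and 313 to 589 against 793 to 1020 CPM in HFCFD12W+T10W, and none of the 8 was at 0 in any group.

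To set the members against this, their log2 CPM was taken relative to the mean log2 CPM of the pan-macrophage markers in the same liver, as a description without a test. In HFCFD12W+T10W, knockout livers exceeded *Cebpa* fl/fl livers on this relative scale by 4.43 for *Gpnmb*, 2.90 for *Trem2*, 2.34 for *Itgax* and 1.23 for *Lgals3*, with no overlap between genotypes. *Tyrobp* was 0.32 higher, also without overlap, *Cd9* (0.94) and *Fabp5* (0.80) were higher with overlap, *Cstb* was at -0.18 with overlap, and *Mreg* was at -1.65 without. In HFCFD8W+T10D the relative difference was 3.06 for *Gpnmb*, 1.42 for *Itgax* and 0.64 for *Lgals3* without overlap, and 1.22 for *Trem2*, 0.54 for *Cd9*, 0.08 for *Tyrobp*, -0.80 for *Mreg* and -0.04 for *Cstb* with overlap. *Fabp5* was below there by -1.27, without overlap. On this scale *Gpnmb*, *Itgax* and *Lgals3* separated the genotypes in both later experiments, and *Cstb* did not. The share of all genes that separate in this way was not computed. The scale rests on a mean that includes the marker lower in HFCFD12W+T10W. Against the marker medians (0.92 and 1.18), the log2 fold changes of *Cstb* (0.72 and 0.77) were smaller. That of *Tyrobp* in HFCFD12W+T10W (1.202) was close to the median.

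**Figure D3:**
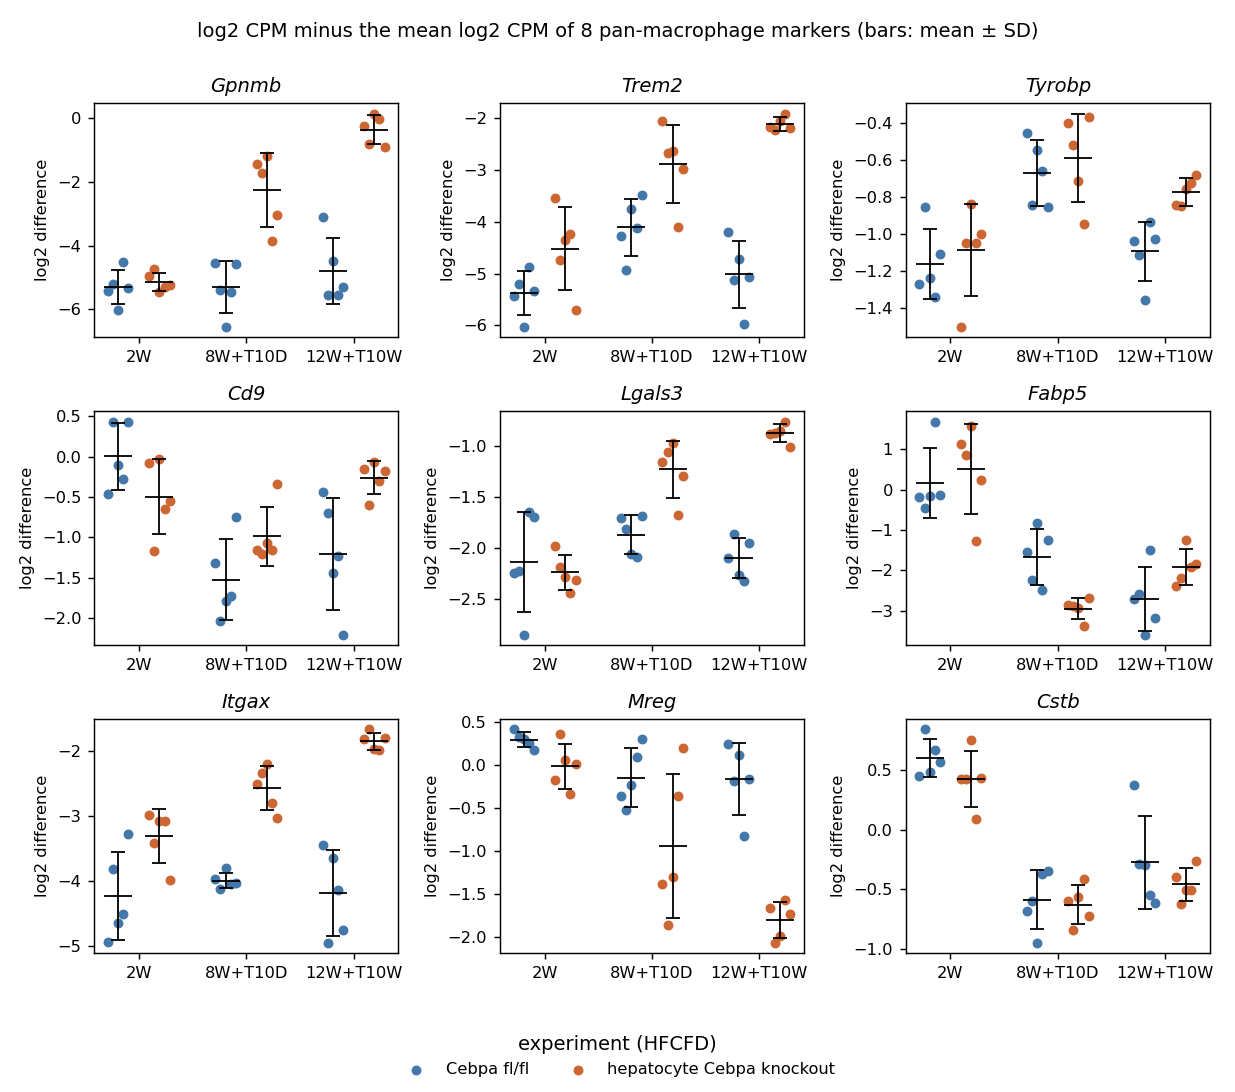
Log2 CPM of each member minus the mean log2 CPM of 8 pan-macrophage markers in the same liver (vertical axis), by experiment and genotype, with 1 point per mouse and bars for the mean ± SD of 5 mice. Knockout livers lie higher by 4.43 for *Gpnmb* and lower for *Mreg* (-1.65) in HFCFD12W+T10W, and *Cstb* overlaps between genotypes in every experiment.

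The levels of the members were ordered by TPM (counts per transcript length, scaled to a common total), the scale on which genes can be compared. In knockout livers of HFCFD12W+T10W, *Cstb* (187 ± 16.5 TPM) and *Tyrobp* (153 ± 17.5) came first and overlapped, followed by *Cd9* (80.7 ± 5.22) and *Lgals3* (57.7 ± 8.03), each separate from the member above. *Fabp5* (34.3 ± 10.2), *Gpnmb* (25.4 ± 8.12) and *Trem2* (25.3 ± 2.87) each overlapped the member above. *Mreg* (13.3 ± 1.33) and *Itgax* (7.14 ± 1.76) were the lowest, each separate from the member above. In *Cebpa* fl/fl livers of that experiment, *Cstb* (85.0 ± 4.88 TPM) and *Tyrobp* (52.0 ± 17.7) also led. There *Mreg* (17.3 ± 4.57 TPM) stood beside *Cd9* (17.2 ± 4.96), and *Trem2* (1.15 ± 0.368), *Gpnmb* (0.552 ± 0.351) and *Itgax* (0.516 ± 0.185) came last and overlapped. *Mreg* thus stood beside *Cd9* in *Cebpa* fl/fl livers and below *Trem2* in knockout livers. In HFCFD2W, *Fabp5* was second in both genotypes (22.7 ± 17.4 and 38.1 ± 18.3 TPM), behind *Cstb* (54.0 ± 2.42 and 63.7 ± 2.04 TPM), but its range overlapped that of *Tyrobp* in both. In *Cebpa* fl/fl livers its median (16.2 TPM) was below that of *Tyrobp* (16.7 TPM), and its mean rested on mouse 4 (53.6 TPM).

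Whether the genotype effect itself differed between experiments was tested by interaction terms in 1 edgeR fit of all 30 livers. The effect was larger in HFCFD8W+T10D than in HFCFD2W for 3 members, *Cd9* (log2 difference of effects 1.39, edgeR adjusted p = 0.00277), *Lgals3* (1.26, 0.0401) and *Cstb* (0.53, 0.027), against 4.45% of all genes. Between HFCFD12W+T10W and HFCFD2W it was larger for *Cd9* (1.97, edgeR adjusted p = 2.0e-05), *Lgals3* (1.89, 0.000845), *Itgax* (1.86, 0.0237) and *Cstb* (0.56, 0.00836), against 13.4% of all genes, and more negative for *Mreg* (-0.83, 0.0116), against 17.3%. Between HFCFD12W+T10W and HFCFD8W+T10D it was larger for *Trem2* (1.82, edgeR adjusted p = 0.0266) and *Fabp5* (2.13, 0.0371), against 4.97% of all genes, and more negative for *Mreg* (-0.74, 0.0411), against 5.49%. These comparisons share groups, so they are not independent of each other. For *Gpnmb* and *Trem2*, no *Cebpa* fl/fl liver of HFCFD2W exceeded 3 counts, so no size is given for differences of effects that involve it. Neither gene passed there by edgeR. With DESeq2 *Gpnmb* passed for both later experiments against HFCFD2W (adjusted p = 0.0125 and 0.000136), and with edgeR for HFCFD12W+T10W when knockout mouse 4 of HFCFD8W+T10D was left out (adjusted p = 0.0382).

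Several of these differences depended on single mice. Of 30 fits that each left out 1 mouse, the difference between the later experiments passed in 17 for *Fabp5* and 14 for *Mreg*, and that of *Trem2* was lost without *Cebpa* fl/fl mouse 3 or 5 of HFCFD8W+T10D or mouse 4 of HFCFD12W+T10W. The difference of HFCFD8W+T10D from HFCFD2W passed in 18 of the 30 for *Lgals3*, in 26 for *Cstb* and in 30 for *Cd9*. That of *Itgax* between HFCFD12W+T10W and HFCFD2W was lost without *Cebpa* fl/fl mouse 2 or 5 of HFCFD2W.

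In *Cebpa* fl/fl livers alone, 5 members were higher in HFCFD8W+T10D than in HFCFD2W, against 22.2% of all genes: *Trem2*, *Tyrobp*, *Lgals3*, *Itgax* and *Mreg*. *Tyrobp* rose from 6.30 ± 0.677 to 23.5 ± 5.23 CPM (log2 1.90, edgeR adjusted p = 3.9e-07) and *Lgals3* from 3.24 ± 1.12 to 10.1 ± 1.93 CPM (log2 1.64, edgeR adjusted p = 4.5e-05). *Itgax* (log2 1.78, edgeR adjusted p = 0.00215) and *Mreg* (log2 0.92, edgeR adjusted p = 9.5e-05) rose too, and *Trem2* went from 0.143 ± 0.0977 to 2.02 ± 0.702 CPM (edgeR adjusted p = 5.7e-05). *Cd9* (log2 -0.16), *Fabp5* (-0.59), *Cstb* (0.17) and *Gpnmb* did not pass, although *Gpnmb* passed with DESeq2 (adjusted p = 0.0136). From HFCFD8W+T10D to HFCFD12W+T10W, 0 members were higher and 0 lower by the edgeR test. Of all genes, 6.31% were called higher, and 664 of 12964 lower. Also 0 members were higher at an unadjusted p under 0.05 and with DESeq2. At an unadjusted edgeR p under 0.05, 3 members were lower: *Trem2*, *Tyrobp* and *Fabp5*. They ranked 1697, 2032 and 2756 of 12964 genes by p. The *Cebpa* fl/fl means of *Trem2* (0.822 ± 0.264 CPM), *Tyrobp* (15.95 ± 5.66 CPM) and *Fabp5* (5.93 ± 5.07 CPM) were below the earlier ones without passing (log2 -1.28, -0.55 and -1.10, edgeR adjusted p = 0.0614, 0.0878 and 0.149). *Trem2* did pass as lower with DESeq2 (adjusted p = 0.0293) and in 4 of 30 edgeR fits without 1 mouse (*Cebpa* fl/fl mouse 2 or knockout mouse 1, 4 or 5 of HFCFD8W+T10D). *Tyrobp* passed as lower without *Cebpa* fl/fl mouse 4 or 5 of HFCFD12W+T10W (edgeR adjusted p = 0.0421 and 0.0429), and *Fabp5* without mouse 4 (log2 -1.75, edgeR adjusted p = 0.0218). The pan-macrophage sum of *Cebpa* fl/fl livers was also higher in HFCFD8W+T10D than in HFCFD2W. Its part in these differences was not tested.

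The knockout mice of HFCFD8W+T10D differed widely from each other for most members, although *Fabp5* had its smallest SD there (2.85 CPM). Mice 4 and 5 had the lowest pair of values for 7 of the 9 members. The exceptions were *Cd9*, lowest in mice 4 and 1, and *Mreg*, which was highest in mice 5 and 4. The pan-macrophage sum was 829.8, 1310, 947, 622 and 658 CPM in mice 1 to 5, the hepatocyte marker sum 55631, 54427, 72522, 107192 and 64704 CPM, and *Cebpa* itself 15.2, 25.1, 21.5, 12.9 and 11.1 CPM. Mice 4 and 5 were thus lowest in macrophage markers and in *Cebpa*, and mouse 4 was highest in hepatocyte markers. The part of these in the members' values was not tested. In HFCFD12W+T10W the knockout mice lay close together for *Trem2*, *Tyrobp*, *Cd9* and *Cstb*.

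**Figure D4:**
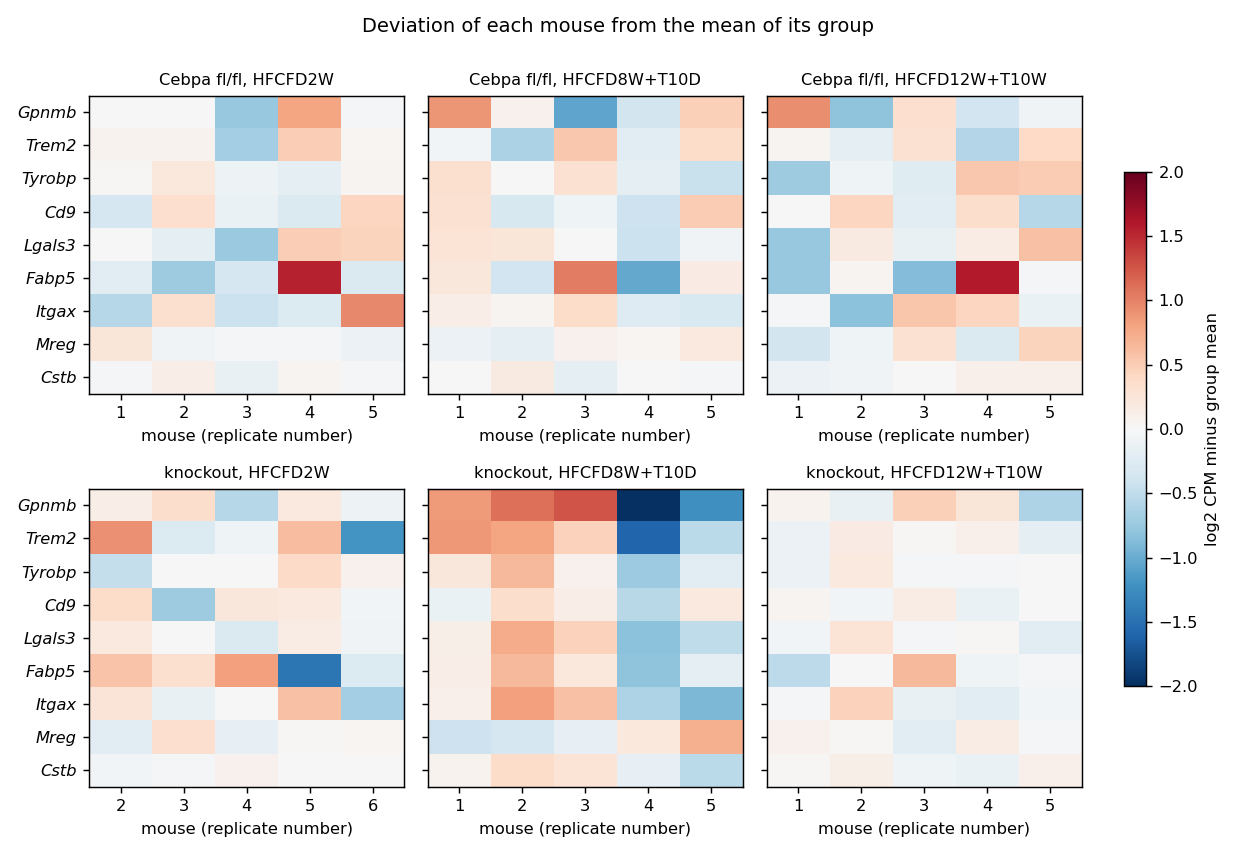
Deviation of each mouse from the mean of its own group, in log2 CPM (color, from -2 in blue to 2 in red), for the 9 members (rows) and the mice of each group (columns, by replicate number). In the knockout group of HFCFD8W+T10D, mice 4 and 5 are blue for most members and red for *Mreg*, and *Fabp5* of *Cebpa* fl/fl mouse 4 is the darkest red cell in both HFCFD2W and HFCFD12W+T10W.

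Within groups, over the 30 livers as deviations from their group means, the closest pairs were *Tyrobp* and *Lgals3* (Pearson r = 0.65), *Gpnmb* and *Trem2* (0.62) and *Lgals3* and *Cstb* (0.60). *Mreg* ran against *Cstb* (-0.54), *Itgax* (-0.45) and *Gpnmb* (-0.43). These are descriptions over livers that share library totals and cell makeup, and the mean deviation of the members spread most widely in the HFCFD8W+T10D knockout group. Among 12964 genes, those whose deviations were most like the mean of the members over the 30 livers were *Actr3* (r = 0.86, Spearman's rho 0.75), *Lpcat2* (0.84, 0.78), *Tmem173* (0.82, 0.76), *Neurl3* (0.81, 0.70), *Tlr2* (0.81, 0.79), *Marcks* (0.79, 0.74), *H2-Q4* (0.79, 0.65) and *Vsir* (0.79, 0.73). Over the 25 livers outside that knockout group, r was between 0.53 for *H2-Q4* and 0.82 for *Lpcat2*, an enzyme of phospholipid remodeling.

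Genes around the members were followed as lists. For these and for the cell markers below, the shares of all genes called higher were 8.6%, 10.3% and 27.4% in the 3 experiments. The shares called lower were 8.09%, 6.85% and 23.8%. Of 10 partners and modulators of TREM2 and TYROBP, 1 of 7 tested was higher in HFCFD2W. In HFCFD8W+T10D 7 of 8 were higher, and then 9 of 9 after the longest treatment, and 0 were lower (median log2 0.58, 0.95 and 1.40). *Inpp5d*, which encodes the phosphatase SHIP1 that restrains this pathway, passed in all 3 (log2 0.85, 1.16 and 1.66). The largest differences in HFCFD12W+T10W were those of *Ms4a4a* (2.72) and *Ms4a7* (2.56), membrane proteins of macrophages, and the smallest those of the sheddases *Adam17* (0.57) and *Adam10* (0.77).

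Of 22 other genes known from lipid-associated macrophages, 3 were higher and 1 lower of 20 tested in HFCFD2W, 15 higher and 0 lower of 21 in HFCFD8W+T10D, and 16 higher and 3 lower of 21 in HFCFD12W+T10W (median log2 0.22, 0.91 and 1.24). *Spp1*, which encodes osteopontin (log2 3.60, 2.59 and 4.16), *Lpl*, lipoprotein lipase (1.87, 2.18 and 2.33), and *Lgals1*, galectin-1 (0.73, 1.12 and 1.31), passed in all 3. The macrophage elastase *Mmp12* (log2 4.44) led with *Spp1* in HFCFD12W+T10W, and the lower genes were *Cd36* (-0.67), a fatty acid transporter, *Apoe* (-0.40), an apolipoprotein that hepatocytes also make, and *Acp5* (-0.22). *Spp1* was itself a subject of the study in these livers, so its direction is not independent evidence. For knockout livers after 2 weeks of HFCFD, the study places the rise of *Spp1* mostly in hepatocytes by single-cell RNA-Seq. By its staining, osteopontin rose mainly in hepatocytes and not in macrophages, so *Spp1* cannot be read as a macrophage transcript here.

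Of the 4 MiT/TFE factors, which can induce *Gpnmb*, *Mitf* was higher in HFCFD12W+T10W (log2 0.69, edgeR adjusted p = 0.0179). *Tfec* (0.45), *Tfe3* (0.12) and *Tfeb* (-0.21) did not pass, nor did any of the 4 tested in HFCFD8W+T10D or the 3 tested in HFCFD2W. Of the 7 papain-like cathepsins, the enzyme class that cystatin B inhibits, 1 of 6 was higher in HFCFD2W and 1 of 7 in HFCFD8W+T10D, while HFCFD12W+T10W had 3 of 7 higher and 1 lower. For lists as small as these factors and cathepsins, such counts are not far from the shares of all genes. *Ctss* passed in all 3 (log2 0.48, 1.16 and 1.78). In HFCFD12W+T10W the largest difference was that of *Ctsk* (2.86), *Ctsz* was lower (-0.53), and *Ctsh* was at -0.15. Of 20 family relatives of the members, 2 of 12 tested were higher in HFCFD2W, and 6 of 13 in HFCFD8W+T10D. The last experiment had 8 of 14 higher, and there *Fabp1*, the liver fatty acid-binding protein, was lower (log2 -0.73) and *Fabp2* was at -0.15. *Treml2* (2.30), a TREM-like receptor, and *Itgam* (2.11), the CD11b integrin, differed most.

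**Figure D5:**
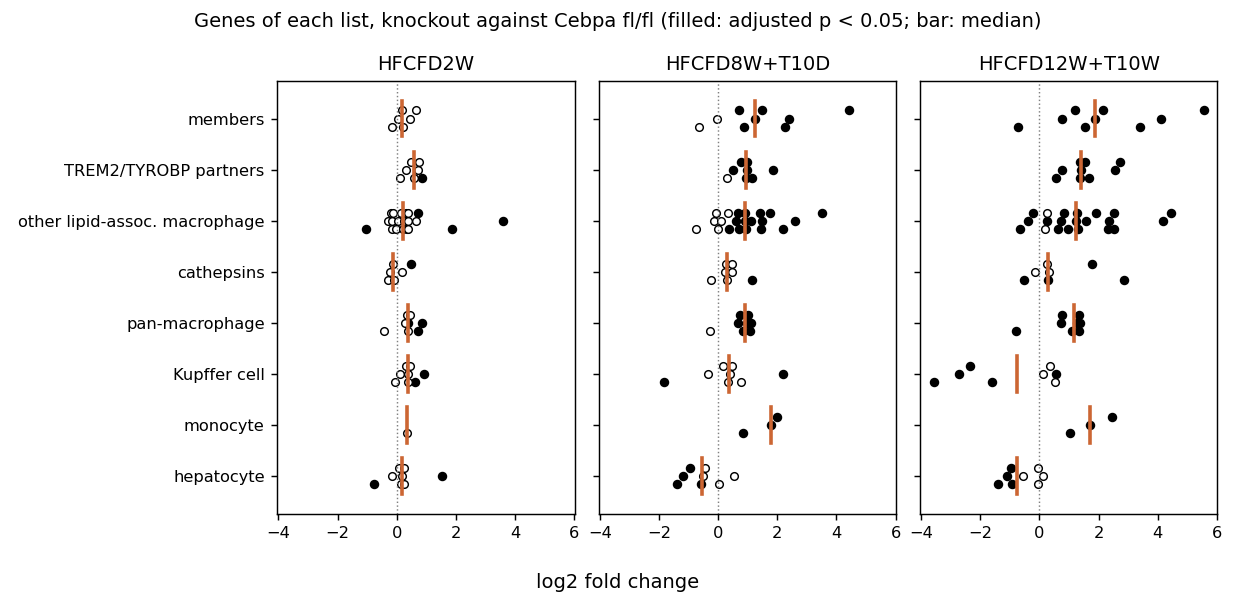
Log2 fold change of every tested gene of 8 lists (rows), knockout against *Cebpa* fl/fl, in the 3 experiments (panels), with filled points where the edgeR adjusted p was under 0.05 and an orange bar at the median. The members' medians are 0.19, 1.26 and 1.87, next to 0.38, 0.92 and 1.18 for the pan-macrophage markers, and the Kupffer cell markers split in HFCFD12W+T10W, with a median of -0.75.

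Markers of the cells that could carry these transcripts did not move as 1 block. Of the pan-macrophage markers, the risers *Cd68* (log2 0.70, 1.02 and 1.37), *Csf1r* (0.38, 0.68 and 0.73) and *Lyz2* (0.85, 0.99 and 1.33) passed in all 3 experiments, and *Cd14* was at 1.34 in HFCFD12W+T10W, where 1 of the 8 was lower. Of 8 resident Kupffer cell markers, 2 were higher in HFCFD2W, 1 was higher and 1 lower in HFCFD8W+T10D, and 1 was higher and 4 lower in HFCFD12W+T10W. *Cd163*, a hemoglobin scavenger receptor, fell from 10.7 to 40.4 CPM in *Cebpa* fl/fl livers to 0.738 to 4.92 CPM in knockout livers of HFCFD12W+T10W (log2 -3.58, edgeR adjusted p = 3.7e-05), and *Timd4*, a receptor for apoptotic cells, from 3.21 to 18.7 CPM to 0.830 to 4.44 CPM (log2 -2.72, edgeR adjusted p = 0.00046). *Marco* and *C6*, named after their values were seen, were the other 2 lower genes (log2 -2.35 and -1.61), while *Vsig4* (0.55) and *Cd5l* (0.52) lay highest. The summed Kupffer level in HFCFD12W+T10W was 342 to 882 CPM in *Cebpa* fl/fl and 454 to 573 CPM in knockout livers, which overlapped.

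Of the classical monocyte markers, all 3 tested were higher in both later experiments, at log2 2.45 for the chemokine receptor *Ccr2*, 1.69 for *Ly6c2* and 1.03 for *Plac8* in HFCFD12W+T10W. The sum of the 5 monocyte markers was 12.2 to 22.8 against 26.8 to 52.1 CPM in HFCFD8W+T10D and 11.4 to 19.7 against 31.5 to 41.2 CPM in HFCFD12W+T10W. In HFCFD12W+T10W, 3 of 3 neutrophil, 3 of 4 dendritic cell and 3 of 4 lymphocyte markers tested were higher, and their sums did not overlap between genotypes (3.51 to 8.26 against 13.3 to 76.2 CPM, 4.04 to 7.58 against 8.85 to 12.8 CPM, and 3.96 to 5.74 against 10.3 to 16.6 CPM). In HFCFD8W+T10D these counts were 1 of 3, 0 of 2 and 0 of 3. *Ly6g*, a defining neutrophil marker, was at 0 in both HFCFD2W groups and in the *Cebpa* fl/fl group of HFCFD8W+T10D.

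Markers of other liver cells moved too. All 7 cholangiocyte markers tested in HFCFD12W+T10W were higher (sum 9.85 to 13.1 against 56.9 to 87.7 CPM), with *Cftr* (log2 7.13) and *Epcam* (4.43) largest and *Krt19* at 2.75, and 3 of 6 in HFCFD8W+T10D (13.9 to 20.5 against 21.9 to 27.4 CPM). Of 8 stellate cell and fibroblast markers, 6 were higher and 1 lower in HFCFD12W+T10W (sum 370 to 451 against 671 to 855 CPM), with *Col1a1* (log2 3.55) and *Pdgfrb* (1.42) largest and *Ecm1* (-0.52) and *Colec11* (0.27) smallest, and 1 of 8 was higher in HFCFD8W+T10D. Of 6 endothelial markers, 2 were lower in HFCFD12W+T10W, *Stab2* (log2 -0.54) and *Clec4g* (-0.50), while *Pecam1* (0.36) and *Kdr* (-0.14) lay highest without passing. Of 8 hepatocyte markers, 4 were lower in each later experiment, led by *Cps1* (-1.39) and *Alb* (-1.10) in HFCFD12W+T10W, where *Ttr* (0.13) and *Apoa1* (-0.03) lay highest without passing. The hepatocyte sum was 108102 to 132432 against 54427 to 107192 CPM in HFCFD8W+T10D and 91522 to 112277 against 49338 to 59280 CPM in HFCFD12W+T10W. The part of these marker levels in the values of members made by many cells, such as *Cd9*, *Lgals3* and *Cstb*, was not tested.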

How the data were processed

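Total RNA of 30 mouse livers was measured by stranded mRNA sequencing. Per the labels, the submitters' processing notes name Trimmomatic 0.36, STAR 2.5.1, Picard 1.84, RSEM 1.2.22, DESeq2 and the mm10 build. The authors deposited RSEM expected counts per gene, raw, together with TPM values per library, FPKM and RPKM values (not used here), and a signal table of TMM-normalized counts, used only for an alternative with limma. RSEM splits reads that fit several genes, and of the members only *Fabp5* (3 of 30 values) and *Itgax* (6 of 30) had values that were not whole numbers.

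Expected counts were rounded. In R 4.3.3 with edgeR 4.0.16, filterByExpr dropped genes of low count, TMM scaled the libraries, and each experiment was fitted alone for a quasi-likelihood test of genotype. P-values were adjusted after Benjamini-Hochberg over all genes tested, and a gene passed at an adjusted p under 0.05. Interactions and *Cebpa* fl/fl groups were tested in 1 fit of all livers. Members under the filter were compared by the exact permutation test of mean CPM over 252 arrangements. Log2 CPM used a prior count of 2. Scripts were tested on simulated data. Alternatives were RLE and upper quartile scaling, no filter, DESeq2 1.42.0, a joint fit, limma 3.58.1 with a pseudocount of 1, the replicate number as a block, stricter thresholds and leaving out each mouse.

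The members and all gene lists were chosen with earlier results of these data known. Named were all members, for the lists around the members and for macrophage and other markers the 2 largest and 2 smallest log2 fold changes in HFCFD12W+T10W and genes that passed in all 3 experiments (except that neutrophil, dendritic cell and lymphocyte markers are given as counts and some extreme genes of other marker lists are left out), and the 8 genes most correlated with the members. These left-out results are not reported here. Samples were grouped by title, genotype and treatment, and each library is 1 mouse. Intervals of fold changes are those of the edgeR fit.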

Additional observations from a re-analysis of the deposited data

Results flagged for a closer look

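In 4 of 52 groups of 5 mice, 1 mouse stood apart from the others by Dixon's test, where chance gives about 5%, 1 in 20 groups. These were *Fabp5* in *Cebpa* fl/fl mouse 4 of HFCFD2W (46.5 CPM) and in *Cebpa* fl/fl mouse 4 of HFCFD12W+T10W (14.8 CPM), which are different animals that share only a number, *Itgax* in knockout mouse 2 of HFCFD12W+T10W (23.1 CPM) and *Mreg* in *Cebpa* fl/fl mouse 1 of HFCFD2W (20.9 CPM).

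The genotype effect of several members differed between experiments by the edgeR interaction test. From HFCFD2W to HFCFD8W+T10D the log2 difference of effects was 1.39 for *Cd9*, 1.26 for *Lgals3* and 0.53 for *Cstb*. From HFCFD8W+T10D to HFCFD12W+T10W it was 1.82 for *Trem2*, 2.13 for *Fabp5* and -0.74 for *Mreg*. From HFCFD2W to HFCFD12W+T10W it was 1.97 for *Cd9*, 1.89 for *Lgals3*, 1.86 for *Itgax*, -0.83 for *Mreg* and 0.56 for *Cstb*. Cre line, diet time, tamoxifen, age and batch cannot be told apart in these differences.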

How the results depend on the processing

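In HFCFD2W, 1 member instead of 0 was higher with no low-count filter, in a joint fit of all 30 livers and with limma on the deposited TMM-normalized values. It was *Itgax*, which these settings tested and the main setting did not. The median log2 fold change there was 0.45 both with no filter and in the joint fit, since more members entered it. With the replicate number as a block (the replicate block), 1 member instead of 3 had a larger effect in HFCFD8W+T10D than in HFCFD2W, *Lgals3* (1.13, adjusted p = 0.0815) and *Cstb* (0.51, 0.0822) being lost. That count was 2 with no filter (*Cstb* 0.52, 0.0514) and 4 with DESeq2, which added *Gpnmb*. DESeq2 also gave 6 instead of 5 members higher in *Cebpa* fl/fl livers of HFCFD8W+T10D than of HFCFD2W. Within experiments the replicate block gave 0, 7 and 8 higher members. The deviations of same-numbered mice had correlations of -0.23 to 0.16. Low correlations cannot exclude a shared litter, cage or handling, so whether the numbers pair the mice is not known.

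The sign turned for *Mreg* in HFCFD8W+T10D with upper quartile scaling (0.009), and for the *Trem2* difference of effects between HFCFD8W+T10D and HFCFD2W, which rests on a group with few counts, with no filter (-0.0184), DESeq2 (-0.0753) and the replicate block (-0.40). The *Mreg* difference between the later experiments missed the threshold with upper quartile scaling (-0.67), no filter (-0.73) and the replicate block (-0.67). The causes were not tested.

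Leaving out 1 mouse at a time gave 0 to 1, 6 to 7 and 8 to 8 higher members in the 3 experiments, medians of 0.13 to 0.34, 1.15 to 1.41 and 1.73 to 2.14, and 1 to 3 (HFCFD8W+T10D over HFCFD2W), 0 to 3 (HFCFD12W+T10W over HFCFD8W+T10D) and 3 to 5 (HFCFD12W+T10W over HFCFD2W) members with a larger effect. In *Cebpa* fl/fl livers it gave 5 to 6 members higher in HFCFD8W+T10D than in HFCFD2W and 0 to 0 higher in HFCFD12W+T10W than in HFCFD8W+T10D, where *Trem2* passed as lower in 4 of these fits, *Tyrobp* in 2 and *Fabp5* in 1. The sign turned in some of these fits for members that did not pass: *Cd9* (-0.24 to 0.0014) and *Mreg* (-0.0526 to 0.11) in HFCFD2W, *Mreg* in HFCFD8W+T10D (-0.26 to 0.0667), the differences of effects of *Mreg* (-0.32 to 0.0127) and *Trem2* (-0.37 to 0.37) from HFCFD2W to HFCFD8W+T10D and of *Cstb* between the later experiments (-0.0908 to 0.14), and *Fabp5* between the early *Cebpa* fl/fl groups (-0.90 to 0.0486).

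Depth (7996128 to 10257366 counts per library) limits *Gpnmb*, *Trem2* and *Itgax* in HFCFD2W, where single counts decide the values.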
